A study of Mus musculus with 4 samples.

Results

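Droplets that held RNA of both Cd209a and C1q were examined among sorted CD11b+ cells of MC38 tumors, a mouse colon carcinoma line grown in mice. A cell barcode marks 1 droplet, and a unique molecular identifier (UMI) marks 1 captured molecule. A barcode was kept if it held 200 genes or more and 500 gene UMIs or more, of which no more than 10% were mitochondrial. A droplet was called Cd209a+C1q+ when it held at least 2 UMIs of Cd209a and at least 10 UMIs of C1qa, C1qb and C1qc together, fewer than 10 UMIs of the neutrophil genes S100a8 and S100a9, and fewer than 5 UMIs of the NK cell genes Ncr1, Klrb1c, Gzma and Prf1. Of 25333 kept barcodes, 104 met the rule, 89 of 15140 in the VISTA KO library and 15 of 10193 in the WT library. The same limits on neutrophil and NK RNA gave 377 Cd209a-only droplets (fewer than 10 C1q UMIs) in VISTA KO and 185 in WT, and 5308 C1q-only droplets (fewer than 2 Cd209a UMIs) in VISTA KO and 2038 in WT.

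The VISTA KO group was made of cells from VISTA KO bone marrow (Vsir is the gene of VISTA, an inhibitory receptor of the B7 family), and the WT group of cells from WT bone marrow, both in chimeric mice of the C57/BL6 strain that were given MC38 tumors after 6 weeks of reconstitution. Tumors of 9 to 10 mm were pooled, the CD45.1 and CD45.2 alleles served to separate WT from VISTA KO cells, and 10000 viable CD11b+ cells, which the labels call myeloid suppressor cells, were loaded on a 10x Genomics 3' v3.1 chip with feature barcoding. Each group was 1 gene expression library with 1 antibody tag library from the same cells, so no difference between VISTA KO and WT has a replicate check. The intervals given (95%, exact Poisson for counts, exact Clopper-Pearson for shares, Newcombe for differences of shares and order statistics for medians) cover counting error only. So do those of log2 ratios of VISTA KO over WT, which are exact conditional binomial intervals without a pseudocount. The sources used here do not give the host cells left in the chimeras, the number of pooled animals or the part of Vsir that was deleted.

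Cd209a encodes a mouse C-type lectin of the DC-SIGN family that is found on type 2 conventional dendritic cells (cDC2) and on dendritic cells that arise from monocytes. C1qa, C1qb and C1qc encode the chains of C1q, the first component of the classical complement pathway, which tissue macrophages make in large amounts. In droplet sequencing, RNA of both kinds under 1 barcode can come from 1 cell, from a pair of cells in 1 droplet, or from free RNA in the suspension. The files hold no readout that separates 1 cell from a pair within a single droplet, so depth, genes and tags were compared with those of Cd209a-only and C1q-only droplets, and the number of cells per droplet was not tested. Cd209a lies at chr8:3743395-3748984, C1qa at chr4:136895916-136898844, C1qb at chr4:136880126-136886200 and C1qc at chr4:136889801-136892936 (RefSeq annotation of GRCm38.p6, the assembly of mm10).

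Surface protein was read in the same droplets through 3 antibodies that carry DNA barcodes, and these tags had no part in the rule. The barcode counted for each antibody is printed whole, in capitals, 5′ to 3′, because the tag levels below are counts of these letters.
CD11c: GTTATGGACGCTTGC
Ly6G: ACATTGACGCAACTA
Ly6C: AAGTCGTGAGGCATG
CD11c is an integrin of dendritic cells and many macrophages, Ly6C marks monocytes, and Ly6G marks neutrophils.

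The deposited matrices held 15257 barcodes and 80366761 gene UMIs in VISTA KO, and 10241 barcodes and 61753547 gene UMIs in WT, with a median of 4212.5 UMIs per kept barcode in VISTA KO and 4692 in WT. The number of VISTA KO barcodes was above the 10000 cells that the labels give as loaded. Of the kept barcode sequences, 46 occurred in both libraries, and 1 of them was a Cd209a+C1q+ droplet of VISTA KO. No doublet caller was applied and no droplet was removed as a doublet.

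Cd209a+C1q+ droplets were 0.588% of kept barcodes in VISTA KO (0.472 to 0.723%) and 0.147% in WT (0.0824 to 0.243%), a difference of 0.441 percentage points (0.295 to 0.588). C1q-only droplets were 35.1% of kept barcodes in VISTA KO and 19.99% in WT, and Cd209a-only droplets were 2.49% in VISTA KO and 1.81% in WT. The difference was 0.724 points with at least 1 Cd209a UMI required and 0.226 points with at least 4. It was 0.285 points with the limits on Cd209a, C1q, neutrophil and NK RNA all set per 5000 UMIs of the droplet.

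C1q RNA among Cd209a barcodes was set against that among barcodes of NK cells, which are not a source of C1q. Of 466 VISTA KO barcodes with at least 2 Cd209a UMIs (and the same limits on neutrophil and NK RNA), 89 reached 10 C1q UMIs, or 19.1% (15.6 to 23.0%). Of 572 VISTA KO barcodes with at least 5 UMIs of the 4 NK genes, 102 did, or 17.8% (14.8 to 21.2%). In WT the limit was reached by 15 of 200 Cd209a barcodes (7.50%, 4.26 to 12.1%) and 50 of 610 NK barcodes, or 8.20% (6.14 to 10.7%). Within each library the Cd209a and NK intervals overlapped, and both shares were higher in VISTA KO, where 39.0% of all barcodes without neutrophil or NK RNA reached 10 C1q UMIs, than in WT, where 27.1% did. Cd209a barcodes were deeper than NK barcodes, with a median of 5368 UMIs against 3018 in VISTA KO and 5740 against 2481 in WT. T cell barcodes (at least 3 UMIs of CD3 genes, a class added after the data were seen) reached the limit in 0 of 17 cases in VISTA KO, which allows up to 19.5%, and in 7 of 136 in WT, or 5.15%.

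Read the other way, at least 2 Cd209a UMIs were found in 1.65% of C1q barcodes in VISTA KO (1.33 to 2.03%) and 0.731% in WT (0.409 to 1.20%). The same limit was met by 1.57% of NK barcodes in VISTA KO (0.722 to 2.97%) and 0.492% in WT (0.102 to 1.43%). Barcodes with neutrophil RNA (at least 10 UMIs of S100a8 and S100a9 and at least 2 of Csf3r and Cxcr2) met it in 2.98% of cases in VISTA KO and 1.72% in WT, at a median depth of 10693 UMIs in VISTA KO and 9399.5 in WT. These neutrophil barcodes reached 10 C1q UMIs in 71.3% of cases in VISTA KO and 60.7% in WT, above the other classes given here.

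**Figure D1:**
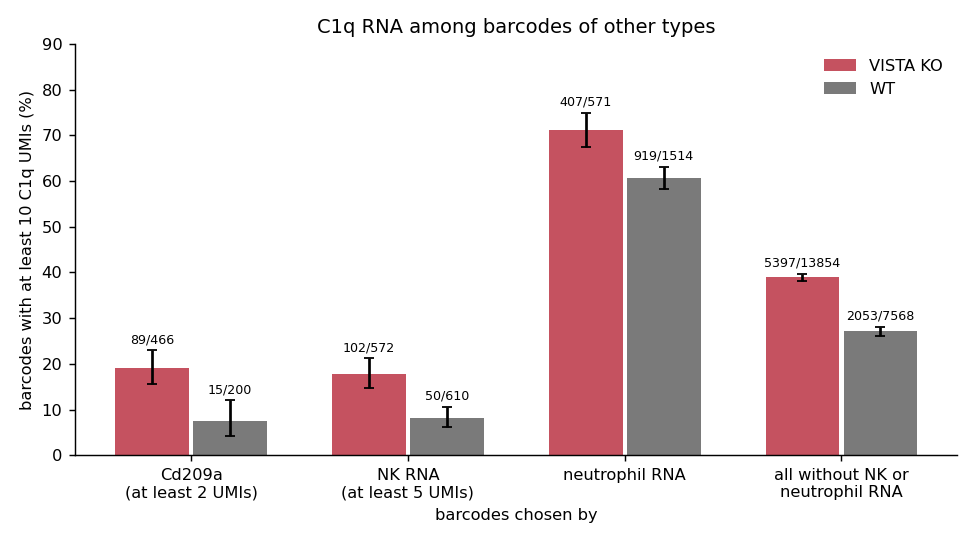
Share of barcodes with at least 10 C1q UMIs (vertical axis, percent) among barcodes chosen by Cd209a, NK or neutrophil RNA and among all others, with VISTA KO left of WT in each pair. Bars are shares of 1 library, error bars are exact 95% binomial intervals, and the numbers are barcodes at the limit over all barcodes of the class. The Cd209a and NK bars lie at 19.1% and 17.8% in VISTA KO and at 7.50% and 8.20% in WT, below the neutrophil bars at 71.3% and 60.7%.

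Of the 466 VISTA KO Cd209a barcodes, 88 held no C1q UMI, 211 held 1 or 2, 60 held 3 or 4, 18 held 5 to 9, 15 held 10 to 19, 28 held 20 to 49, 28 held 50 to 99 and 18 held 100 or more. These bins differ in width, so the counts do not show whether droplets were sparse at the limit. The 15 just inside it had a median of 8159 UMIs and the 18 just outside it 7354.5, against 4655 in the 88 barcodes with no C1q and 18179.5 in the 18 with at least 100. In WT, 128 of 200 held none, 49 held 1 or 2, 2 held 5 to 9 and 4 held 10 to 19. Among the 572 VISTA KO NK barcodes, 129 held none, 245 held 1 or 2, 31 held 5 to 9, 16 held 10 to 19 and 39 held 20 to 49. Barcodes without a C1q UMI were 18.9% of Cd209a and 22.6% of NK barcodes in VISTA KO, and 64% of Cd209a and 66.9% of NK barcodes in WT.

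On the Cd209a side, 20 of the 89 VISTA KO droplets held exactly 2 Cd209a UMIs and 15 held at least 10, with 2 and 4 of 15 in WT. Just outside this limit, 80 C1q barcodes of VISTA KO and 25 of WT held 1 Cd209a UMI, at a median depth of 8023 UMIs in VISTA KO and 10788 in WT.

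The 3 C1q chains stood in close ratios in the droplet classes compared. C1qa, C1qb and C1qc made up 37.0%, 43.6% and 19.4% of the C1q UMIs in VISTA KO Cd209a+C1q+ droplets, against 37.4%, 42.7% and 19.8% in C1q-only droplets and 37.9%, 42.1% and 20.02% in droplets with NK and C1q RNA. In WT the shares were 38.2%, 43.1% and 18.7% in Cd209a+C1q+ droplets and 36.5%, 43.4% and 20.2% in C1q-only droplets.

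Cd209a+C1q+ droplets were deeper than both single sets. VISTA KO Cd209a+C1q+ droplets held 1649, 11299 and 34081 UMIs (lowest, median and highest), against 547, 4962 and 20617 in Cd209a-only droplets and 538, 5903.5 and 38125 in C1q-only droplets. WT Cd209a+C1q+ droplets held 5430, 12026 and 22811 UMIs, against medians of 5615 in Cd209a-only and 6157 in C1q-only droplets. The medians of the single sets add up to 10865.5 UMIs in VISTA KO and 11772 in WT, so the Cd209a+C1q+ median was 1.04 times the sum in VISTA KO (0.978 to 1.14) and 1.02 times in WT (0.878 to 1.34), where the interval is that of the median of the Cd209a+C1q+ droplets. With means in place of medians the ratio was 0.989 in VISTA KO and 0.946 in WT.

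Because limits on raw UMIs are met more easily by deep droplets, the same ratio was taken for other mixed classes and with limits scaled to depth. Droplets with NK and C1q RNA had a median of 9571.5 UMIs in VISTA KO and 8587 in WT, 1.13 and 1.02 times the sum of the NK-only and C1q-only medians. Droplets with neutrophil and C1q RNA had 13409 in VISTA KO and 12636 in WT, 1.39 and 1.18 times their sum. With limits per 5000 UMIs in place of raw UMIs, 58 VISTA KO droplets met the limits and their median was 7291.5 UMIs, against 4697 in Cd209a-only and 4913.5 in C1q-only droplets. That is 0.759 times the sum, and in WT the ratio under those limits was 0.993 from 10 droplets.

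Most Cd209a+C1q+ droplets were deep, with a few exceptions. Of 89 in VISTA KO, 83 held more UMIs than the C1q-only median and 4 held no more than the Cd209a-only median, and in WT the numbers were 14 and 1 of 15. Depths above the 90th percentile of C1q-only droplets were found in 33.7% of VISTA KO and 40% of WT Cd209a+C1q+ droplets. The 6 VISTA KO droplets at or below the C1q-only median held a median of 3 Cd209a and 17 C1q UMIs, against 5 and 55 in the other 83. Across the 89 VISTA KO droplets, Spearman's rho was 0.54 between depth and C1q UMIs and 0.11 between depth and Cd209a UMIs, as a description of droplets of 1 library.

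**Figure D2:**
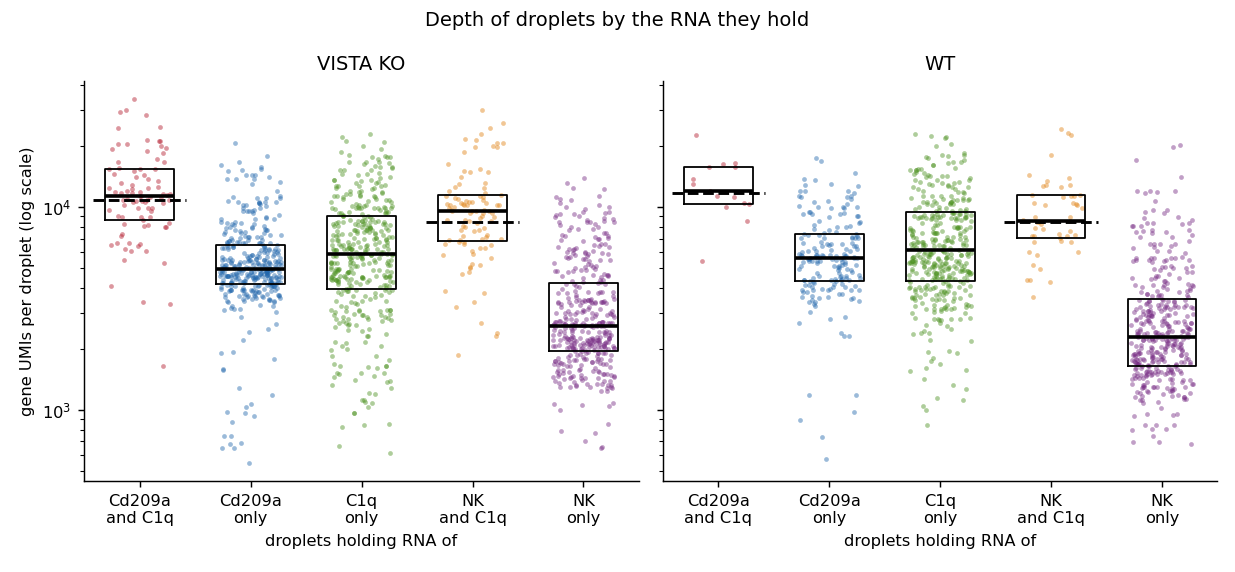
Gene UMIs per droplet (vertical log axis) in 5 droplet classes, VISTA KO in the left panel and WT in the right. Each point is a droplet, with at most 400 drawn per class, boxes span the quartiles with the median as a thick line, and dashed lines mark the sum of the medians of the 2 single classes that make up a mixed class. The Cd209a+C1q+ medians of 11299 in VISTA KO and 12026 in WT lie near their dashed lines at 10865.5 and 11772.

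More genes were detected in Cd209a+C1q+ droplets, and the gap was small at equal depth. The median was 2998 genes in VISTA KO, against 1684 in Cd209a-only and 2009 in C1q-only droplets, and 2927 in WT, against 1813 and 2012.5. After each droplet was thinned to 2000 UMIs, the medians were 1011 genes (995 to 1020) in VISTA KO Cd209a+C1q+ droplets, 939 in Cd209a-only (927 to 948) and 990 in C1q-only droplets (988 to 993). In WT they were 994 (973 to 1046), 936 and 978. Thinning left out 1 Cd209a+C1q+, 20 Cd209a-only and 368 C1q-only droplets of VISTA KO and 0, 6 and 68 of WT. At equal depth the Cd209a+C1q+ medians stayed above both single sets in both libraries, and the WT interval held the C1q-only median.

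All 3 antibody tags had a higher median in Cd209a+C1q+ droplets than in either single set. The CD11c median was 40 tag UMIs in VISTA KO Cd209a+C1q+ droplets, against 12 in Cd209a-only and 23 in C1q-only droplets, and 39 in WT, against 17 and 20. The Ly6C median was 1497 in VISTA KO, against 261 and 1183.5, and 2106 in WT, against 257 and 1441. The Ly6G median was 8 in VISTA KO, against 1 and 6, and 12 in WT, against 2 and 9. Cd209a-only droplets carried the fewest Ly6C tags, and 85 of 89 VISTA KO and 15 of 15 WT Cd209a+C1q+ droplets lay above the Cd209a-only median.

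The mean tag count was close to the sum of the means of the single sets. For CD11c it was 0.957 times the sum in VISTA KO and 0.892 in WT, for Ly6C 1.04 and 0.861, and for Ly6G 1.12 and 0.988. The spread between droplets was wide, with CD11c tags at 2 to 313 in VISTA KO and 8 to 163 in WT. Under the limits per 5000 UMIs, the VISTA KO ratios were 0.606 for CD11c, 0.615 for Ly6C and 0.725 for Ly6G.

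**Figure D3:**
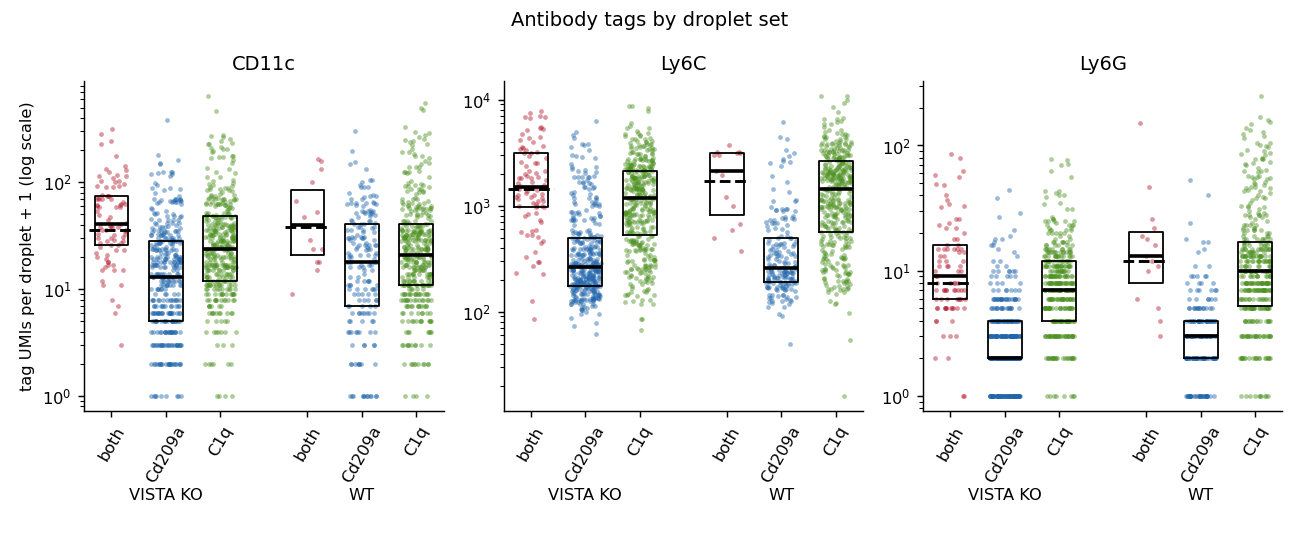
Antibody tag UMIs per droplet plus 1 (vertical log axes) for CD11c, Ly6C and Ly6G, with VISTA KO left of WT in each panel and the droplets with both RNAs left of Cd209a-only and C1q-only droplets. Points are droplets (at most 400 drawn per class), boxes span the quartiles with the median as a thick line, and dashed lines mark the sum of the 2 single medians. The Ly6C medians of 1497 and 2106 in droplets with both RNAs lie far above the Cd209a-only medians of 261 and 257.

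Markers of cDC2 that the rule did not use were found in Cd209a+C1q+ droplets, some of them at mean UMIs close to those of Cd209a-only droplets and some lower. Clec10a, a galactose-binding lectin of cDC2, averaged 2.31 UMIs per droplet in VISTA KO (2.01 to 2.65), against 2.28 in Cd209a-only and 0.175 in C1q-only droplets. In WT it averaged 3.93 (2.99 to 5.07), against 2.30 and 0.171, with 28.8% of its UMIs in 1 droplet. It was found in 53 of 89 VISTA KO and 10 of 15 WT Cd209a+C1q+ droplets. Kmo, an enzyme of tryptophan breakdown, averaged 0.438 UMIs in VISTA KO (0.312 to 0.599), against 0.435 and 0.0279, and 15 UMIs were found in the 15 WT droplets, against means of 0.692 and 0.0231. Flt3, the receptor of the dendritic cell growth factor Flt3 ligand, averaged 0.157 in VISTA KO (0.0860 to 0.264), against 0.159 and 0.00885. Zbtb46, a transcription factor of conventional dendritic cells, averaged 0.124 (0.0617 to 0.221), against 0.0875 and 0.00528. Lower in VISTA KO was Klrd1, an NK receptor chain that cDC2 also express, at 1.04 UMIs, against 1.42 and 0.0403. Dpp4, a peptidase, averaged 0.348 UMIs in VISTA KO, against 0.408 and 0.0477, and 0.467 in WT, against 0.297 and 0.0329. Thinned to 2000 UMIs, it was found in 3 of 88 VISTA KO Cd209a+C1q+ droplets, or 3.41% (0.709 to 9.64%), against 16.5% of Cd209a-only and 1.21% of C1q-only droplets. In WT, thinned Dpp4 was found in 0 of 15, against 10.1% and 0.863%. Cd209d, a lectin gene near Cd209a, averaged 0.213 UMIs in VISTA KO, against 0.504 and 0.00151, and 2.07 in WT, against 0.665 and 0.00196. Clec10a, Kmo, Flt3 and Zbtb46 were far lower in C1q-only droplets of both libraries, where Clec10a was still found in 13.2% of VISTA KO droplets. The cDC2 markers Mgl2 and Napsa set the single sets apart less. Mgl2 averaged 1.29 UMIs in VISTA KO Cd209a+C1q+ droplets, against 1.38 in Cd209a-only and 0.680 in C1q-only droplets, and 2.73 in WT, against 2.30 and 0.533. Napsa averaged 5.11 in VISTA KO, against 4.18 and 1.53, and 6.87 in WT, against 5.54 and 1.77.

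Macrophage markers were found beside them at mean UMIs of the order seen in C1q-only droplets. Apoe, an apolipoprotein of lipid-handling macrophages, averaged 54.2 UMIs in VISTA KO Cd209a+C1q+ droplets (52.7 to 55.7), against 6.53 in Cd209a-only and 49.8 in C1q-only droplets, and 53.8 in WT (50.2 to 57.6), against 2.28 and 39.7, with 42.3% of the WT UMIs in 1 droplet. Ms4a7, a membrane protein of macrophages, averaged 4.92 UMIs in VISTA KO (4.47 to 5.40), against 0.472 and 4.76, and 4.67 in WT, against 0.162 and 5.11. Csf1r, the receptor of the macrophage growth factor CSF1, averaged 3.82 UMIs in VISTA KO, against 0.966 and 2.78, and 2.60 in WT, against 0.686 and 2.14. The rule's own genes, given as a description, had these means: Cd209a averaged 5.89 in VISTA KO Cd209a+C1q+ and 6.43 in Cd209a-only droplets, and C1qb 27.4 in VISTA KO Cd209a+C1q+ and 27.2 in C1q-only droplets.

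As shares of the droplet's RNA, both marker lists lay between the single sets. The cDC2 list (18 genes without Cd209a) took 2054 CPM (UMIs per 1000000 summed UMIs) in VISTA KO Cd209a+C1q+ droplets, against 4471 in Cd209a-only and 844 in C1q-only droplets, and 2543 in WT, against 5209 and 867. The macrophage list (24 genes without C1q) took 11128 CPM in VISTA KO, against 3874 and 16250, and 9886 in WT, against 2382 and 14928. In mean UMIs per droplet, the cDC2 list was at 0.822 times the sum of the single means in VISTA KO and 0.842 in WT. The macrophage list was at 1.03 times its sum in VISTA KO and 1.02 in WT. Thinned to 2000 UMIs, Clec10a was found in 22 of 88 VISTA KO Cd209a+C1q+ droplets (16.4 to 35.4%), against 42.3% of Cd209a-only and 4.39% of C1q-only droplets, and at full depth in 59.6%, against 60.2% and 13.2%. Thinned Ms4a7 was found in 44.3% of VISTA KO Cd209a+C1q+ droplets (33.7 to 55.3%), against 9.24% and 50.8%, and at full depth in 78.7%, against 17.0% and 69.3%. Thinned Kmo was in 9.09% of VISTA KO Cd209a+C1q+ and 11.8% of Cd209a-only droplets, Flt3 in 4.55% and 5.60%, and Mgl2 in 13.6% and 15.4%. Zbtb46 stood at 2.27% and 3.92% there, and Cd209d at 2.27% and 12.0%. In the 15 thinned WT droplets Clec10a was in 33.3%, against 36.9% of Cd209a-only droplets, Mgl2 in 13.3%, against 21.2%, and Zbtb46 in 0%, against 3.35%. Kmo was higher there at 26.7%, against 20.7%, as were Flt3 at 6.67%, against 2.23%, and Cd209d at 20%, against 11.7%.

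Some droplets reached the level of both single sets at once. In VISTA KO, 33 of 89 droplets were at or above the Cd209a-only median for the cDC2 list and the C1q-only median for the macrophage list at once, and in WT 5 of 15. The macrophage list was above the 90th percentile of Cd209a-only droplets in 81 of 89 VISTA KO and 13 of 15 WT droplets. The cDC2 list was above the 90th percentile of C1q-only droplets in 53 of 89 VISTA KO and 11 of 15 WT droplets. Spearman's rho between the 2 list percentages was -0.17 over the 89 VISTA KO droplets and -0.05 over the 15 WT droplets, values that share each droplet's total.

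**Figure D4:**
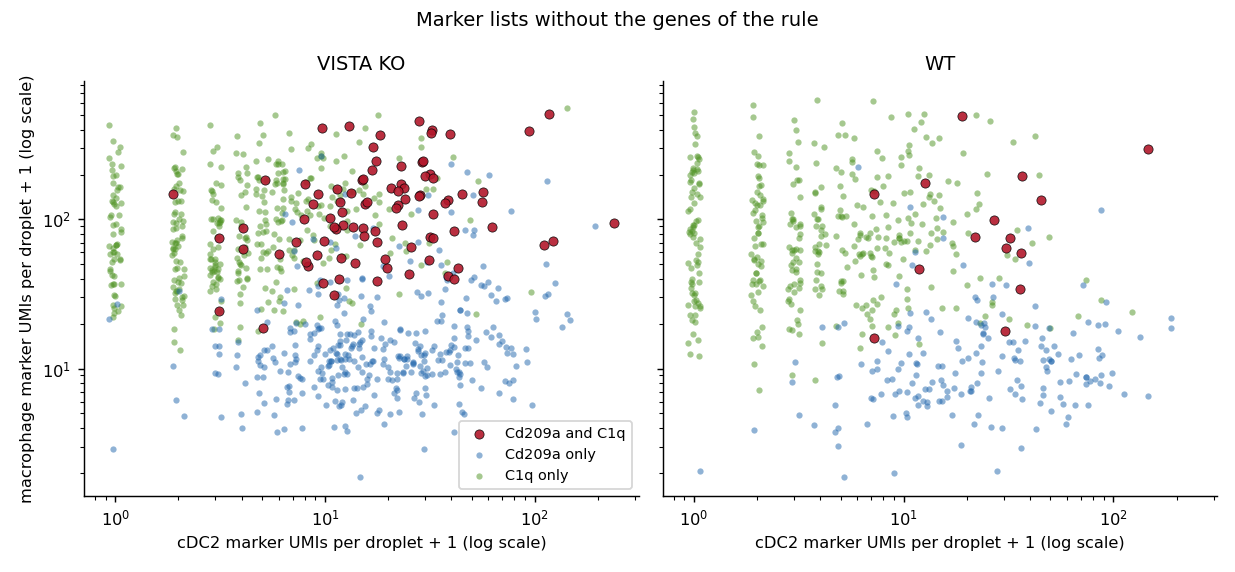
UMIs of the macrophage list (vertical) against the cDC2 list (horizontal) per droplet plus 1, both on log axes, without Cd209a and C1q genes, with VISTA KO left and WT right. Each point is a droplet with a small random shift, at most 400 per class. Red points hold Cd209a and C1q RNA and lie at macrophage counts of C1q-only droplets and cDC2 counts of Cd209a-only droplets, with medians of 17 cDC2 and 117 macrophage UMIs in VISTA KO and 29 and 76 in WT.

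The monocyte genes Ly6c2, Plac8 and Ccr2 had higher mean UMIs in the deeper Cd209a+C1q+ droplets than in either single set. As a share of RNA, the list of 13 monocyte markers lay between the single sets. It took 17449 CPM in VISTA KO, against 14037 in Cd209a-only and 18120 in C1q-only droplets, and 14604 in WT, against 12129 and 18361. Ly6c2, which encodes Ly6C, averaged 24.4 UMIs in VISTA KO Cd209a+C1q+ droplets, against 7.63 in Cd209a-only and 16.2 in C1q-only droplets, and 23.0 in WT, against 7.50 and 19.5. Plac8, an interferon-induced gene of monocytes, averaged 48.9 in VISTA KO, against 23.2 and 25.7, and 53.5 in WT, against 24.5 and 33.4. Ccr2, the receptor that brings monocytes into tissue, averaged 9.04 in VISTA KO, against 3.59 and 5.28, and 6.87 in WT, against 2.89 and 4.77. Each mean was less than 1.5-fold from the sum of the single means.

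Levels of NK and neutrophil markers were limited by the rule, which removed droplets with RNA of those cells from the single sets too, and are given as a description. Among 12 NK and T cell markers, 6 were at 0 in VISTA KO and 9 in WT Cd209a+C1q+ droplets, Cd3d, Cd3e and Cd3g included, and the list's level of 1364 CPM in VISTA KO and 537 in WT held 1344 CPM of the chemokine Ccl5 in VISTA KO and 527 in WT, with 65.7% of its WT UMIs in 1 droplet. The list stood at 1772 CPM in C1q-only droplets of VISTA KO and 651 in those of WT. Neutrophil markers took 200 CPM in VISTA KO, against 105 and 271, and 305 in WT, against 91.7 and 476, with Ly6g, Ngp and Camp at 0 in both libraries. Basophil and mast cell markers took 0.889 CPM in VISTA KO and none of their UMIs were found in WT. Fibroblast, endothelial and tumor markers took 38.2 CPM in VISTA KO and 20.7 in WT, pDC and B cell markers 1334 CPM in VISTA KO and 1468 in WT, of which Bst2, an interferon-induced gene that many cells express, held 1322 CPM in VISTA KO and 1447 in WT, and cDC1 markers 380 in VISTA KO and 382 in WT, each less than 1.5-fold from the sum of the 2 single profiles. Mature dendritic cell markers were farther from that sum, at 89.8 CPM against 46.2 in VISTA KO and 36.2 against 66.0 in WT. They had 101 UMIs in VISTA KO, 66 of them of Ccl22, and 7 in WT.

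Gene by gene, the droplets were set against a pair sum, the mean UMIs per Cd209a-only droplet plus the mean per C1q-only droplet of the same library, both profiles scaled to CPM. Among 9617 VISTA KO genes with at least 100 UMIs over the 3 sets, 5.62% stood 1.5-fold or more above the pair sum and 7.59% stood 1.5-fold or more below it. Among 7891 WT genes it was 11.2% and 16.5%. The shares were smaller where more UMIs were required. Among the 5613 VISTA KO genes with at least 20 UMIs in the Cd209a+C1q+ droplets or the pair sum, 2.69% were higher and 1.66% lower, and among 1598 such WT genes 3.94% and 3.57%. Over those genes the median log2 ratio was 0.04 in VISTA KO (quartiles -0.11 and 0.19) and 0.02 in WT (-0.15 and 0.22).

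Genes that set the single sets apart took intermediate levels. Of 634 VISTA KO genes at least 2-fold apart between Cd209a-only and C1q-only droplets, 565, or 89.1%, had a level in Cd209a+C1q+ droplets between the 2, 61 were above both and 8 below both. Of 212 such WT genes, 189 lay between, or 89.2%. The genes were chosen for a wide gap between these same sets, and the droplets for RNA of both kinds. These counts are therefore a description, and nothing was tested by them. A non-negative least squares fit of the mean Cd209a+C1q+ profile, with the rule's genes left out, gave a weight of 0.746 to the Cd209a-only and 1.18 to the C1q-only profile in VISTA KO, and 1.13 and 0.756 in WT. No gene of the 1753 with at least 100 UMIs over both libraries' Cd209a+C1q+ droplets and presence in at least 10% of them in either library was past 1.5-fold from the pair sum the same way in both libraries. That minimum counts only UMIs in the Cd209a+C1q+ droplets, so genes scarce in them were left out. Ccl8, with too few UMIs for it, was past 1.5-fold below the pair sum in both, at log2 ratios of -1.51 in VISTA KO and -1.35 in WT.

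**Figure D5:**
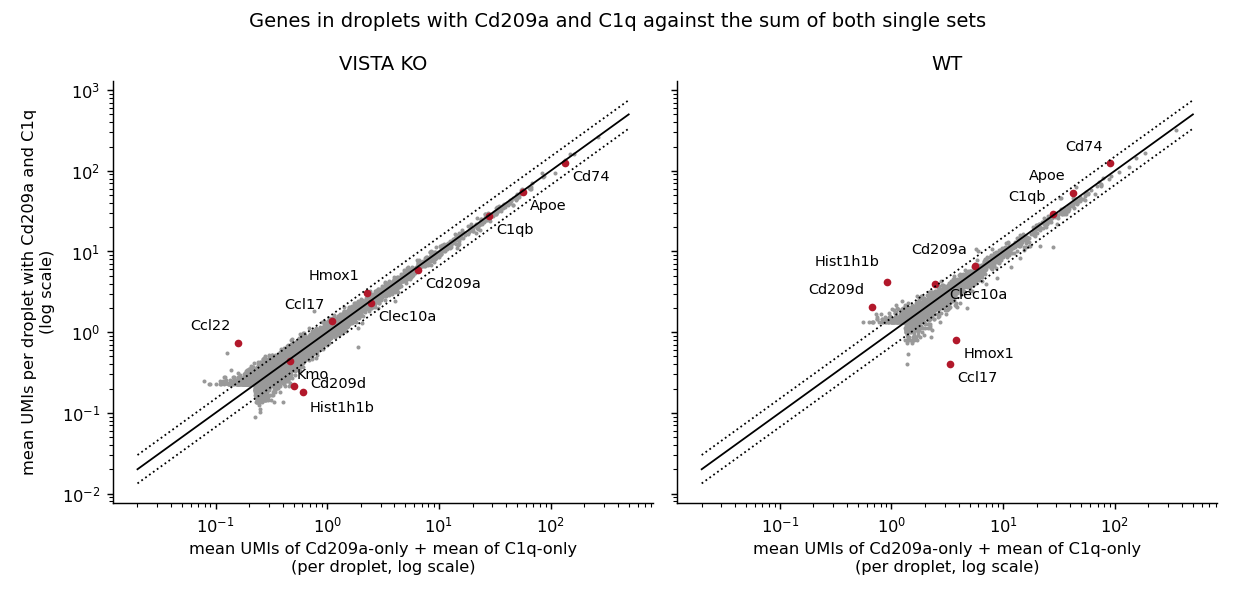
Mean UMIs per Cd209a+C1q+ droplet (vertical) against the sum of the Cd209a-only and C1q-only means (horizontal), both on log axes, for genes with at least 20 UMIs in the droplets or the pair sum and at least 1 in the droplets, VISTA KO left and WT right. Each grey point is a gene, the solid line marks equality, dotted lines mark 1.5-fold, and red points are named genes. Apoe and Cd74 lie near the line in VISTA KO, as do C1qb and Cd209a, whose place the choice of droplets largely sets, while Ccl22, Hist1h1b and Cd209d there and Hist1h1b, Cd209d, Clec10a, Hmox1 and Ccl17 in WT lie outside 1.5-fold.

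The genes farthest from the pair sum, chosen after their values were seen, often rested on 1 droplet. Ccl22, a chemokine of mature dendritic cells, had 66 UMIs in the 89 VISTA KO droplets against 14.0 in the pair sum, and 89.4% of them were in 1 droplet. Inhba, a subunit of activin, had 49 against 11.4, in 16 droplets. In WT, Hist1h1b, a histone gene of dividing cells, had 63 UMIs against 13.7 in the pair sum, 90.5% of them in 1 droplet, whereas in VISTA KO it had 16 UMIs against 53.5. Below the pair sum were Ccl8, a monocyte-attracting chemokine, with 58 UMIs against 169 in VISTA KO and 5 against 15.1 in WT, and in WT Hmox1, the heme-degrading enzyme, with 12 against 57.4, and Ccl17, a T cell-attracting chemokine, with 6 against 50.2. In VISTA KO these last genes were above it, Hmox1 with 275 UMIs against 200.3 and Ccl17 with 121 against 98.6.

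Droplets with RNA of dividing cells were counted. No VISTA KO Cd209a+C1q+ droplet held 3 or more UMIs of Mki67, Top2a and Hist1h1b together (0 of 89, which allows up to 4.06%), against 3.18% of Cd209a-only and 1.75% of C1q-only droplets. In WT 2 of 15 did, or 13.3% (1.66 to 40.5%), against 3.78% and 3.04%. Mki67 itself, a protein of cycling nuclei, had 1 UMI in VISTA KO and 5 in WT, where all 5 were in 1 droplet.

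The list of MHC class II genes, which serve antigen presentation to CD4 T cells, stood below the pair sum in VISTA KO and above it in WT. The list also holds Cd40, Cd80 and Cd86, which are not class II genes. In VISTA KO the list took a median of 2.20% of UMIs in Cd209a+C1q+ droplets, against 2.84% in Cd209a-only and 2.05% in C1q-only droplets. In WT the median was 2.33%, against 2.32% in Cd209a-only and 0.483% in C1q-only droplets, so that WT Cd209a+C1q+ droplets stood at the Cd209a-only level. H2-Aa, a chain of the class II molecule I-A, averaged 46.9 UMIs in VISTA KO against a pair sum of 51.7, and 46.6 in WT against 33.1. Cd74, the invariant chain, averaged 125 in VISTA KO against 135, and 124 in WT against 91.1. Above the C1q-only median were 51 of 89 VISTA KO and 14 of 15 WT droplets. Among list members with at least 20 UMIs, 0 of 11 in VISTA KO and 3 of 9 in WT were at least 1.5-fold above the pair sum, against 2.69% of all such genes in VISTA KO and 3.94% in WT, and none was that far below it. Cd40 was 1 of those 3 in WT, with a mean of 2 UMIs against 1.11 in the pair sum.

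VISTA KO and WT Cd209a+C1q+ droplets were compared on summed UMIs, 1124880 in VISTA KO and 193509 in WT, and log2 ratios are of CPM with a pseudocount of 1 UMI. Vsir, the targeted gene (chr10:60346851-60430294), was at 37.3 CPM in VISTA KO and 109 in WT, a log2 ratio of -1.57 (-2.33 to -0.71), and was found in 28 of 89 VISTA KO and 11 of 15 WT droplets. Reads at the 3' end do not show whether a deleted part elsewhere was transcribed. Vsir was also lower in Cd209a-only droplets (log2 ratio -2.16) and C1q-only droplets (-1.37).

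Of 1861 genes with at least 100 UMIs over both sums, 7.9% had a level 1.5-fold or more higher in VISTA KO and 7.2% had one 1.5-fold or more lower. The ratios rest on 15 WT droplets, and their intervals do not cover the spread between droplets. The median log2 ratio over these genes was -0.04.

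Ifi202b, an interferon-inducible gene of the Ifi200 family, had the highest ratio, with 541 CPM in VISTA KO, in 88 of 89 droplets, and 1 UMI in WT (log2 ratio 5.71, 4.23 to 12.0). Its log2 ratio was 6.28 in Cd209a-only and 6.25 in C1q-only droplets. Ifi211 and Ifi205 of the same family were among the 12 lowest, at -1.56 (-1.92 to -1.18) and -1.22 (-1.61 to -0.79). All 3 lie 35.8 to 35.9 megabases from Ptprc, the CD45 gene whose alleles separated the donors, on chromosome 1, and Nucks1 (log2 ratio -1.003), a nuclear phosphoprotein, lies 6.15 megabases on its other side. The labels do not say which donor carried CD45.1, the genes are near copies between which reads can be split, and the part of either in these ratios was not tested.

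Chemokines were at both ends. Ccl24, which attracts eosinophils, had 164 UMIs in 14 VISTA KO droplets, 44.5% of them in 1, and none in WT, at least 9.40-fold higher against a floor of 3 counts over the WT group. Ccl17 was at 108 CPM in VISTA KO and 31.0 in WT (1.58, 0.63 to 3.27), found in 13 of 89 and 3 of 15 droplets, whereas its log2 ratio was -1.76 in Cd209a-only droplets. In VISTA KO 42.1% of its UMIs were in 1 droplet, as were 66.7% of its 6 UMIs in WT. Cxcl2, a neutrophil-attracting chemokine, was lowest at -1.62 (-1.90 to -1.32), but 94.7% of its WT UMIs were in 1 droplet.

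The other genes with high ratios were found in 38 or more VISTA KO droplets and had few UMIs in WT. Hmox1 had 275 UMIs in VISTA KO and 12 in WT (1.87, 1.15 to 2.95), in 49 of 89 and 7 of 15 droplets, and its ratio was -1.25 in Cd209a-only and -0.57 in C1q-only droplets. Vegfa, the vascular growth factor, had 98 UMIs in 38 VISTA KO droplets and 4 in 2 WT droplets (1.77, 0.67 to 3.98). Ly6i, a Ly6 family gene with near copies, was at 324 CPM in VISTA KO and 103 in WT (1.58, 1.00 to 2.37), and at 1.14 in C1q-only droplets. Pgap2, an enzyme of GPI anchors, Trim30d, Trib1, a pseudokinase, Il18bp, which binds the cytokine IL-18, Snx18, a sorting nexin, and Nfil3, a transcription factor, had ratios of 1.38 to 1.91, and of 0.13 to 0.39 in Cd209a-only droplets.

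The other low genes had moderate ratios. Mgl2, a galactose-binding lectin of cDC2 and a close relative of Clec10a, was at 102 CPM in VISTA KO and 212 in WT (-1.07, -1.58 to -0.50), in 35 of 89 and 8 of 15 droplets, with -0.61 in Cd209a-only and 0.42 in C1q-only droplets. Bloc1s2, Ddx46, a splicing helicase, Anapc5, a subunit of the anaphase-promoting complex, Ccnd2, cyclin D2, Ube2s, a ubiquitin-conjugating enzyme, and Arl1, a Golgi GTPase, had ratios of -1.20 to -1.02.

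For the gene lists a smaller step, 0.32 on the log2 scale, and at least 20 UMIs per gene were used. Among 5817 such genes, 24.1% were past that step higher in VISTA KO and 31.3% were past it lower. Of 13 cDC2 markers, 1 was higher (Ccl17) and 9 were lower, with a median log2 ratio of -0.63 over the list, against -0.08 over all 5817 genes. Clec10a was at -0.75 (-1.16 to -0.29) and Kmo at -1.22 (-2.05 to -0.20). Of 20 macrophage markers 9 were higher and 2 lower (median 0.27), among them Trem2, a lipid receptor, at 0.56 (0.12 to 1.09), with Pf4, a platelet-type chemokine, at -0.53 (-0.85 to -0.18) but 91.5% of its WT UMIs in 1 droplet. The least squares weight of the Cd209a-only profile was lower in VISTA KO (0.746) than in WT (1.13), and its part in these list values was not tested.

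Of 12 complement genes 7 were higher in VISTA KO and 0 lower, with a median of 0.36. The complement list holds C1qa, C1qb and C1qc, which the rule used to choose the droplets, so their part in it is a description only. C3, the central complement protein, was at 0.62 (0.16 to 1.20) and Cfb, a factor of the alternative pathway, at 0.75 (0.34 to 1.23), while C1qa was at -0.13 (-0.28 to 0.04). Of 10 immunosuppressive mediators 7 were higher and 1, Vsir, lower, with a median of 0.62. Arg1, the arginase of suppressive myeloid cells, averaged 20.6 UMIs per droplet in VISTA KO and 11.8 in WT (0.82, 0.61 to 1.06), and Cd274, which encodes PD-L1, 1.85 in VISTA KO and 1.13 in WT (0.67, 0.02 to 1.55). The pair sums were 18.1 UMIs in VISTA KO and 17.4 in WT for Arg1, and 1.65 in VISTA KO and 1.34 in WT for Cd274.

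Of 6 S, G2 and M phase genes that reached 20 UMIs, all 6 were lower in VISTA KO. In WT, 2 of 15 droplets held at least 3 UMIs of Mki67, Top2a and Hist1h1b together, and their part in these values was not tested. Interferon-stimulated genes gave 3 higher and 1 lower of 11, monocyte markers 4 and 1 of 13, C-type lectin receptors 1 and 3 of 13, MHC class II genes 1 and 3 of 10, and dissociation and heat shock genes 1 and 1 of 12. The lectin list holds Cd209a, which the rule used to choose the droplets. The background shares for the same step were 24.1% higher and 31.3% lower.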

How the data were processed

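Whole-number UMI counts per gene and antibody tag were used as deposited, 1 gene expression and 1 tag library per group, with 32285 genes and 3 tags per barcode. The file headers name Cell Ranger 5.0.0 as the program that made the deposited count matrices. The submitters' processing notes add the build mm10 and Seurat 4.0, for a step that no source used here gives, and cell calling settings were not stated.

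Members and gene lists were chosen with earlier results of these data known. No doublet caller was applied and none were removed. UMIs were summed per droplet set, scaled to CPM and compared with a pseudocount of 1 UMI, and the pair sum added the mean profiles of Cd209a-only and C1q-only droplets. With 1 library per group there was no test, and droplets are not replicates. Of 222 listed symbols in 17 lists, 220 were in the matrices. The genes named for VISTA KO over WT were the 12 highest and 12 lowest ratios among those with at least 100 UMIs and presence in at least 10% of droplets of either library, without mitochondrial, ribosomal, Xist, Y-linked and unnamed genes. The rule's genes, Vsir, Ptprc and list members could also be named. Some genes that the rule names are not reported here. Droplets were thinned at random to 2000 UMIs to compare genes at equal depth.

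Alternatives changed the Cd209a and C1q limits, the cell filter, the thinning depth, the gene minimum, the pseudocount, the scaling and the droplets used. The scripts were tested on simulated data. Python 3.11.15, numpy 2.4.6, scipy 1.17.1, pandas 2.3.3 and matplotlib 3.10.9 were used. UMI counts limit the precision, above all in the 15 WT droplets.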

Additional observations from a re-analysis of the deposited data

Results flagged for a closer look

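The MHC class II list stood on opposite sides of the pair sum in the 2 libraries, at a log2 ratio of -0.12 in VISTA KO and 0.54 in WT. It is given here because the 2 values lie at least 1.5-fold apart with opposite signs. With 1 library per group the difference was not tested.

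Cd209d, a C-type lectin gene near Cd209a and a near copy of it, was past 1.5-fold on opposite sides, at -1.19 in VISTA KO and 1.62 in WT. It is given because both values pass 1.5-fold with at least 20 UMIs in the droplets or the pair sum of each library. It had 19 UMIs in 11 VISTA KO droplets and 31 UMIs in 4 WT droplets, with 54.8% of the WT UMIs in 1 droplet, and the difference was not tested.

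Hist1h1b, a histone gene, met the same limits, at -1.66 in VISTA KO and 2.21 in WT. It had 16 UMIs in 15 VISTA KO droplets and 63 UMIs in 3 WT droplets, with 90.5% of the WT UMIs in 1 droplet, and the difference was not tested.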

How the results depend on the processing

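No paired analysis was possible because VISTA KO and WT were single libraries. Among the alternative values for the main results, 101 moved by less than their interval or, for counts, by less than 1.5 times and 21 moved further. The difference in the share of Cd209a+C1q+ droplets was 0.724 points with at least 1 Cd209a UMI, 0.226 with at least 4 and 0.285 with limits per 5000 UMIs. The C1q share of Cd209a barcodes was 23.2% in VISTA KO and 12.7% in WT with at least 1 Cd209a UMI, and 14.0% in VISTA KO per 5000 UMIs. The C1q share of NK barcodes, 17.8% in VISTA KO and 8.20% in WT, was replaced by 0% in VISTA KO and 5.15% in WT when T cell barcodes were used, an alternative added after the data were seen, so that the share was lower in VISTA KO, from 17 barcodes. Per 5000 UMIs the VISTA KO ratios to the pair sum were 0.759 for depth, 0.606 for CD11c, 0.615 for Ly6C and 0.725 for Ly6G, of medians for depth and of means for tags. With raw limits they were 1.04 for depth, 0.957 for CD11c, 1.04 for Ly6C and 1.12 for Ly6G, so that depth, Ly6C and Ly6G changed from above to below the pair sum. Genes past 1.5-fold from the pair sum were 13.2% in VISTA KO and 27.7% in WT. In VISTA KO they were 19.9% with a minimum of 20 UMIs, and with 20 UMIs required in the droplets or the pair sum (added after the data were seen) 4.35% in VISTA KO and 7.51% in WT. The genes past 1.5-fold in VISTA KO over WT, 147 higher and 134 lower, became 793 and 946 with a minimum of 20 UMIs, 68 and 222 with a pseudocount of 5 UMIs, and 6 and 5 in shallow droplets only, where 26 genes were left to compare and WT was 1 droplet. With that pseudocount Ifi202b was at 4.14 and Ccl24 at 2.54. The cause of these shifts was not tested.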
